A study of Mus musculus with 10 samples.

Results

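CD127+ lymphoid-primed multipotent progenitors (LMPPs) of mouse bone marrow were set against the 3 other progenitor groups of the study, to find transcripts that are higher or lower there than in each of the others. They are the 3 arrays whose titles name CD127+ LMPPs, of 10 arrays in all. The study asked how LMPPs with and without CD127 relate to common lymphoid progenitors (CLPs). All cells came from adult C57BL/6 mice, and no treatment or altered allele is given for any group. CD127+ LMPPs (n = 3 arrays) were lineage-negative, CD127-positive and high for all of cKit, Sca-1 and Flt3. CD127- LMPPs (n = 3) had the same phenotype without CD127. Ly6D- CLPs (n = 2) and Ly6D+ CLPs (n = 2) were lineage-negative, CD127-positive and high for Flt3 but low for cKit and for Sca-1, and are named by Ly6D. The labels do not say whether arrays of a group came from separate animals or sorts, so p-values reflect the spread between these arrays, which may be technical.

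LMPPs are early progenitors that have largely lost the potential to make red cells and platelets and retain lymphoid and granulocyte and macrophage potential. CD127 is the α chain of the receptor for interleukin 7, a cytokine needed for lymphocyte development in mice, and its appearance on progenitors marks lymphoid specification. CLPs lie further along the lymphoid path, and Ly6D on them marks those that favour the B lineage.

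Each gene value is the mean of the deposited values of all probe sets annotated to that gene symbol alone, on a scale read as log2, and 23152 genes had one. Differences are CD127+ LMPPs minus the equal mean of the other 3 group means, unless another group is named, with standard errors (SE) and Benjamini-Hochberg adjusted p from limma. A gene was called at an adjusted p under 0.05. Sensory receptor genes, which are not expected to be transcribed in marrow, gave a limit for low signal, the 95th percentile of their mean values, at 4.43. Where any group mean on the dimmer side lay below this limit, the fold was taken with the limit in its place and is written as at least that value. The quartiles of the 10 arrays differed by at most 0.125 log2. The 3 CD127+ arrays correlated with each other at Pearson r of 0.982 to 0.984 across genes, which are not independent replicates. In these bulk samples, fewer cells of a type and less RNA per cell cannot be told apart. The sources used here do not say if LMPP and CLP arrays were processed together, so a processing difference between them and a difference in the cells cannot be told apart.

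The sort markers were measured first. Il7r, which encodes CD127, stood at 9.05, 9.15 and 9.10 log2 on the CD127+ LMPP arrays, against 3.84, 4.70 and 4.43 in CD127- LMPPs, 9.34 and 9.28 in Ly6D- CLPs, and 9.66 and 9.62 in Ly6D+ CLPs. The CD127+ LMPP arrays thus lay far above those of CD127- LMPPs and slightly below those of both CLP groups. Kit averaged 8.33 in CD127+ LMPPs, against 8.69 in CD127- LMPPs, 7.62 in Ly6D- CLPs and 7.04 in Ly6D+ CLPs. It was called higher (difference 0.54, adjusted p = 0.0433) with a mean between those of the other groups. Ly6a, which encodes Sca-1, had 7.08, 6.41 and 7.58 in CD127+ LMPPs, against 5.63, 5.99 and 5.82 in CD127- LMPPs, 5.98 and 5.04 in Ly6D- CLPs, and 5.83 and 6.77 in Ly6D+ CLPs. It was not called (difference 1.15, adjusted p = 0.0874). Flt3 differed by 0.12 (adjusted p = 0.659). Ly6d stood at 8.67, 8.81 and 8.53 in CD127+ LMPPs, against 4.61 to 4.91 in CD127- LMPPs, 5.59 and 6.17 in Ly6D- CLPs, and 11.31 and 11.35 in Ly6D+ CLPs. Its level in CD127+ LMPPs was thus above that of Ly6D- CLPs by 2.79 log2 (adjusted p = 0.00031) and below that of Ly6D+ CLPs (difference -2.66, adjusted p = 9.95e-05), although the LMPPs were not divided by Ly6D. The order of the group means followed the labels for Il7r and Kit. That of Ly6a did not, since CD127- LMPPs, sorted as high for Sca-1, had a mean of 5.82 and Ly6D+ CLPs, sorted as low, one of 6.30. The call of Kit was lost in 9 of the 10 fits that each left out 1 array.

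Genes with their highest level in CD127+ LMPPs were led by Car1, a carbonic anhydrase abundant in red cells, by the metallothionein gene Mt2, and by genes of neutrophil granules. Over all genes, 173 (0.747%) were called higher and 61 (0.263%) lower than the equal mean, 1.01% in all, and 57 of these 234 differed by at least 2-fold as measured. Of the 173, 104 (0.449% of all genes) had their highest group mean in CD127+ LMPPs and 69 lay between other groups. Of the 61, 51 (0.22%) had their lowest mean there and 10 lay between. With no test, 4487 genes (19.4%) had their highest and 4950 (21.4%) their lowest mean in this group. The counts rest on few arrays: they were 39, 45 and 49 without CD127+ LMPP array 1, 2 or 3, 121, 137 and 133 without CD127- LMPP array 1, 2 or 3, 152 without Ly6D- CLP array 1, and 97 and 113 without Ly6D+ CLP array 1 or 2.

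A stricter test asked that a gene differ from each of the 3 other groups in the same direction, with the largest of the 3 p-values adjusted over all genes. Car1 alone passed as higher (adjusted p = 0.00548, 0.00432% of genes) and no gene passed as lower, while at an unadjusted largest p under 0.05 there were 134 higher and 102 lower. Without CD127+ LMPP array 1 or 3 or CD127- LMPP array 1 or 3 no gene passed, and without CD127- LMPP array 2 there were 3. When each of the 3 pairwise comparisons was instead adjusted on its own and all 3 had to pass, 19 genes (0.0821%) were higher and 5 (0.0216%) lower, and all 24 were among those called against the equal mean. The 19 were Car1, S100a8, Camp, Mt2, Retnlg, Chi3l3, S100a9, Ces2g, Lcn2, Gm15915, Expi, Rhag, Ermap, Kel, Pglyrp2, Aldh1a1, Atp1b2, Fam55b and 1700017J07Rik. The 5 were Gria3, Lrrc16a, I830077J02Rik, Mir296 and Klrk1. Those of the 24 described below with no list or rule behind them were chosen after their values were seen.

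For the 104 genes highest in CD127+ LMPPs, the nearest group was CD127- LMPPs for 67, Ly6D- CLPs for 22 and Ly6D+ CLPs for 15. Their median difference was 0.55 log2 from CD127- LMPPs, 0.91 from Ly6D- CLPs and 1.07 from Ly6D+ CLPs, with medians over all genes of -0.0051, 0.0087 and -0.0053. Taken pairwise, 38 of them passed against CD127- LMPPs, 74 against Ly6D- CLPs and 80 against Ly6D+ CLPs, beside 0.881%, 1.42% and 2.75% of all genes called higher in those comparisons. The 51 lowest genes were nearest to CD127- LMPPs for 33, with median differences of -0.38, -0.86 and -0.95 from the same groups in that order. Of these 51, 16 passed against CD127- LMPPs, 35 against Ly6D- CLPs and 38 against Ly6D+ CLPs (0.592%, 0.635% and 1.28% of all genes called lower). In 67 of the 104 and 33 of the 51, no CD127+ array overlapped any other array, as held for 337 genes (1.46%) on the high side and 368 (1.59%) on the low side of all 23152. These shares were fixed in part by choosing genes that were called and extreme.

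Car1 read 8.93, 8.06 and 8.97 log2 on the CD127+ LMPP arrays. It read 5.70, 5.86 and 5.63 in CD127- LMPPs, 5.31 and 4.54 in Ly6D- CLPs, and 4.17 and 4.48 in Ly6D+ CLPs. The lowest CD127+ array was 2.20 log2 above the highest of the other 7. The difference from the equal mean was 3.66 (SE 0.22, adjusted p = 9.84e-05), at least 12.3-fold, and from each group in turn 2.93, 3.73 and 4.33. All 10 probe sets of Car1 were higher, and CD127+ LMPPs had the highest mean in 9 of them.

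The late neutrophil granule list holds proteins of secondary and tertiary granules and of mature neutrophils. Of its 18 members, 10 rose in CD127+ LMPPs and none fell, beside 0.747% of all genes called higher, and the 8 others were not called. The median difference of the list was 1.11 log2, against 0.0064 over all genes. All 10 had their highest mean in CD127+ LMPPs, with no overlap with any other array, beside 1.46% of all genes without overlap. Of the 10, 6 passed against each of the 3 groups pairwise, beside 0.0821% of all genes. S100a8 and S100a9, the subunits of calprotectin, were the brightest. S100a8 read 10.77, 11.08 and 10.55 in CD127+ LMPPs, against 7.37, 9.11 and 6.08 in CD127- LMPPs, 7.46 and 7.38 in Ly6D- CLPs, and 7.86 and 6.70 in Ly6D+ CLPs. Its difference was 3.39 (SE 0.50, 10.5-fold, adjusted p = 0.0131), and CD127- LMPP array 2 came nearest. S100a9 read 9.55, 9.60 and 9.15 in CD127+ LMPPs and 6.23 to 7.92 over the other arrays, 4.69-fold higher (adjusted p = 0.0126).

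Camp, which encodes the antimicrobial peptide cathelicidin, read 8.04, 8.81 and 8.31 in CD127+ LMPPs. It read 4.34, 5.61 and 4.32 in CD127- LMPPs, 5.59 and 4.59 in Ly6D- CLPs, and 5.85 and 5.32 in Ly6D+ CLPs. The difference was 3.24 (SE 0.32, 9.47-fold, adjusted p = 0.00268), and all 4 probe sets had their highest mean in CD127+ LMPPs. Retnlg, a resistin-like secreted protein, read 5.97, 7.68 and 6.04 in CD127+ LMPPs and 3.26 to 4.82 elsewhere (at least 4.34-fold, adjusted p = 0.0117). Chi3l3, now named Chil3, a chitinase-like lectin, read 7.29, 7.27 and 6.69 in CD127+ LMPPs and 3.36 to 5.06 elsewhere (at least 5.48-fold, adjusted p = 0.00685). These ranges left gaps of more than 1 log2 between CD127+ LMPPs and the rest.

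Ngp, the neutrophilic granule protein, read 6.50, 7.23 and 6.44 in CD127+ LMPPs and 3.92 to 5.49 elsewhere (at least 3.53-fold, adjusted p = 0.00685), and was not called against Ly6D+ CLPs alone (adjusted p = 0.0559). Lcn2, lipocalin 2, which binds bacterial siderophores, read 6.01, 6.62 and 5.92 in CD127+ LMPPs and 3.82 to 4.94 elsewhere (at least 3.22-fold, adjusted p = 0.0131), with 7 of its 10 probe sets higher. Ltf, lactoferrin, differed by 1.49 (adjusted p = 0.0433), Pglyrp1, a peptidoglycan recognition protein, by 1.36 (adjusted p = 0.00352) and Cebpe, the transcription factor of late granulocyte differentiation, by 0.71 (adjusted p = 0.0302). Pairwise, Ltf passed against no group (adjusted p of 0.058 to 0.0765) and Pglyrp1 not against CD127- LMPPs (adjusted p = 0.232). Cebpe passed pairwise only against Ly6D- CLPs (adjusted p = 0.0122). Lyz2, lysozyme, missed the threshold (0.87, adjusted p = 0.0503). Further members not called were Mmp8 (0.27), Mmp9 (0.28), Cxcr2 (-0.13), Ly6g (0.67), Ifitm6 (0.65), Hp (0.80) and Fpr1 (-0.04), with adjusted p of 0.183 to 0.921. Ly6g, the antigen that defines mature mouse neutrophils, read 4.36, 4.47 and 3.84 in CD127+ LMPPs, around the low-signal limit, and 2.53 to 4.74 elsewhere. Fpr1 lay under the limit on every array.

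The mean log2 level over the 18 members was 6.06 to 6.67 on the CD127+ LMPP arrays, against 4.74 to 5.46 in CD127- LMPPs, 4.75 to 4.83 in Ly6D- CLPs and 4.68 to 5.18 in Ly6D+ CLPs. In CD127+ LMPPs 15 members had a mean above the low-signal limit, against 11 in CD127- LMPPs, 9 in Ly6D- CLPs and 10 in Ly6D+ CLPs. Whether neutrophils or their precursors among the sorted cells had a part in these differences was not tested. The count of called members fell to 4, 4 and 5 without CD127+ LMPP array 1, 2 or 3, and stood at 8 to 10 without any single array of another group. It was 5 when each gene took its brightest probe set. Camp, Retnlg and Ngp were called with each array left out. S100a8, S100a9 and Lcn2 were not called without any 1 of the CD127+ LMPP arrays (adjusted p 0.059 to 0.0793), with differences for S100a8 of 3.25 to 3.52, and Chi3l3 was not called without CD127+ LMPP array 1 or 2 (adjusted p of 0.0525 and 0.0508).

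**Figure D1:**
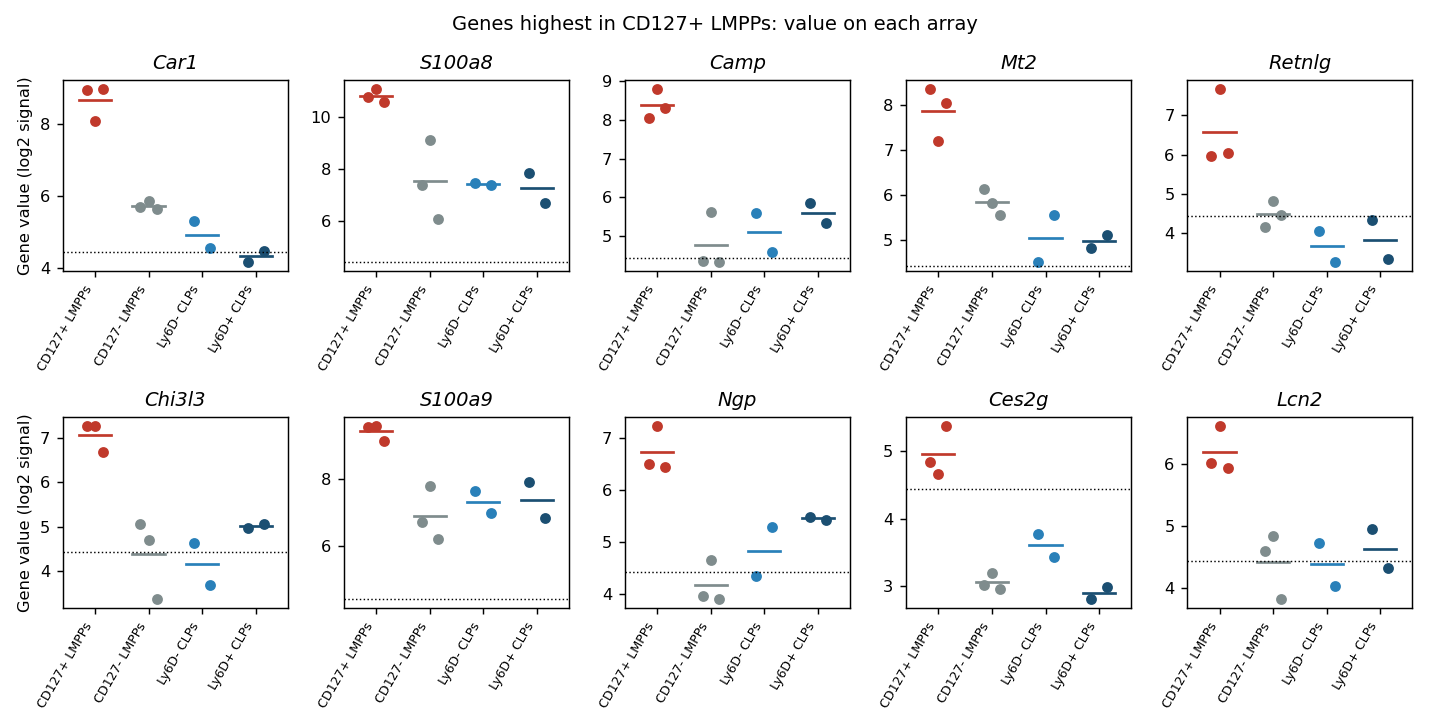
Value on each array (log2) of the 10 genes named as highest in CD127+ LMPPs, by group, with a bar at the group mean and a dotted line at the low-signal limit of 4.43. By the rule that chose these genes, the 3 CD127+ LMPP arrays lie above all 7 other arrays in every panel. Car1 stood at 8.06 to 8.97 against 4.17 to 5.86.

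The primary granule list holds proteins that granulocyte progenitors make earlier. Of its 14 members, 4 were called higher than the equal mean, beside 0.747% of all genes, and its median difference was 0.27. Elane, neutrophil elastase, read 8.06, 7.80 and 7.67 in CD127+ LMPPs, against 8.70, 7.04 and 6.43 in CD127- LMPPs, 5.11 and 5.26 in Ly6D- CLPs, and 5.05 and 4.67 in Ly6D+ CLPs. It was 4.10-fold above the equal mean (adjusted p = 0.0335), while CD127- LMPP array 1 exceeded every CD127+ array, and its call was lost in 8 of 10 fits with 1 array left out. Nkg7, a granule membrane protein also found in cytotoxic lymphocytes, was highest in CD127+ LMPPs without overlap, at 9.34 to 9.43 against 8.25 to 8.87 elsewhere (difference 0.86, adjusted p = 0.00673). Prtn3, proteinase 3, had 7.49, 7.58 and 7.23 in CD127+ LMPPs, against 8.95, 8.38 and 8.13 in CD127- LMPPs and 4.31 to 6.10 in the CLP groups. Ctsg, cathepsin G, lay between in the same way (difference 0.66, adjusted p = 0.0409). Against CD127- LMPPs no member of this list was higher and 4 were lower, whereas 7 of 18 members of the late list were higher there and none lower. Of all genes, 0.881% were called higher and 0.592% lower in that comparison.

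The erythroid list holds genes of red cell precursors. Of its 20 measured members, 7 rose and none fell, beside 0.747% of all genes called higher and 0.263% lower. The median difference was 0.58 log2, and 13 had their highest mean in CD127+ LMPPs, beside 19.4% of all genes. The count of 7 was 4 when each gene took its median probe set and 1 when it took its brightest. Besides Car1 these were Car2, another carbonic anhydrase, Rhag and Rhd of the Rh antigen complex of the red cell membrane, Ermap, an erythroblast membrane protein, Aqp1, the water channel of red cells, and Blvrb, biliverdin reductase B. Rhag read 4.70, 4.16 and 4.94 in CD127+ LMPPs, against 3.38 to 3.68 in CD127- LMPPs, 3.17 and 3.19 in Ly6D- CLPs, and 3.50 and 3.35 in Ly6D+ CLPs (difference 1.23, SE 0.16, at least 1.12-fold, adjusted p = 0.00728). All of these other arrays lay under the low-signal limit, as did CD127+ array 2. Pairwise, 3 of the 7 passed against each group (Car1, Rhag and Ermap), beside 0.0821% of all genes. Rhd was not called against Ly6D+ CLPs (adjusted p = 0.0695). Blvrb passed only against Ly6D+ CLPs (adjusted p = 0.0126), and its arrays overlapped those of CD127- LMPPs. Aqp1 passed against no group (adjusted p of 0.0557 to 0.0673).

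Ermap read 5.67, 5.38 and 5.85 in CD127+ LMPPs and 4.12 to 4.87 elsewhere (at least 2.09-fold, adjusted p = 0.00672), and all 13 of its probe sets were higher. Rhd read 5.95, 5.47 and 6.30 in CD127+ LMPPs and 4.22 to 4.97 elsewhere (difference 1.15, adjusted p = 0.0277). Car2 read 8.26, 7.84 and 8.57 in CD127+ LMPPs, against 7.48 to 7.69 in CD127- LMPPs and 5.61 to 7.25 in the CLP groups (2.63-fold, adjusted p = 0.00672). Against CD127- LMPPs alone Car2 was not called (0.64, adjusted p = 0.242). Kel, the Kell blood group protein, was not on the list. It rose by a measured 1.05 (at least 1.06-fold, adjusted p = 0.00414), with 4.26 to 4.65 in CD127+ LMPPs and 3.29 to 3.67 elsewhere. For Kel too, all arrays of the other groups lay under the low-signal limit, as did CD127+ LMPP array 2.

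Several genes that define red cell differentiation were not called. Klf1, the erythroid Krüppel-like factor, read 5.72, 5.34 and 6.06 in CD127+ LMPPs and 4.84 to 5.31 elsewhere, without overlap (0.63, adjusted p = 0.0808). Gata1 differed by 0.61 (adjusted p = 0.11), the erythropoietin receptor gene Epor by 0.60 (adjusted p = 0.218) and Hemgn by 0.55 (adjusted p = 0.0563). Alas2, the first enzyme of haem synthesis in red cells, differed by 0.12 and Slc4a1, the band 3 anion exchanger, by 0.00 (adjusted p of 0.878 and 0.998). Tfrc, the transferrin receptor, was lower by a measured -0.44 (adjusted p = 0.0807). Globin genes were not analysed here.

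The mean level over the 20 members was 5.30 to 5.69 log2 on the CD127+ LMPP arrays, against 4.85 to 4.91 in CD127- LMPPs, 4.72 to 4.88 in Ly6D- CLPs and 4.74 in both Ly6D+ CLP arrays. In CD127+ LMPPs 18 members had a mean above the low-signal limit, against 12 in each of the other groups. Gata1 had a mean above the limit in CD127+ LMPPs alone, and CD127+ LMPP array 2 lay below it. The part of erythroid cells among the sorted cells in these differences was not tested. The count of 7 fell to 2 without CD127+ LMPP array 1 and to 4 without CD127+ LMPP array 3, CD127- LMPP array 1, or Ly6D+ CLP array 1 or 2.

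The late neutrophil and erythroid members did not rank the 3 CD127+ LMPP arrays alike. Array 2 was the highest of the 3 for 8 of the 10 called late neutrophil genes, whose mean was 7.18, 7.69 and 7.05 on arrays 1, 2 and 3. For the 7 called erythroid genes array 2 was the lowest of the 3 for 6, with means of 6.43, 5.98 and 6.58. Mt2 was lowest on array 2 as well. With 3 arrays this is a description with no test. Both lists were nevertheless above the other groups on each of the 3 arrays, by the mean levels given above.

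**Figure D2:**
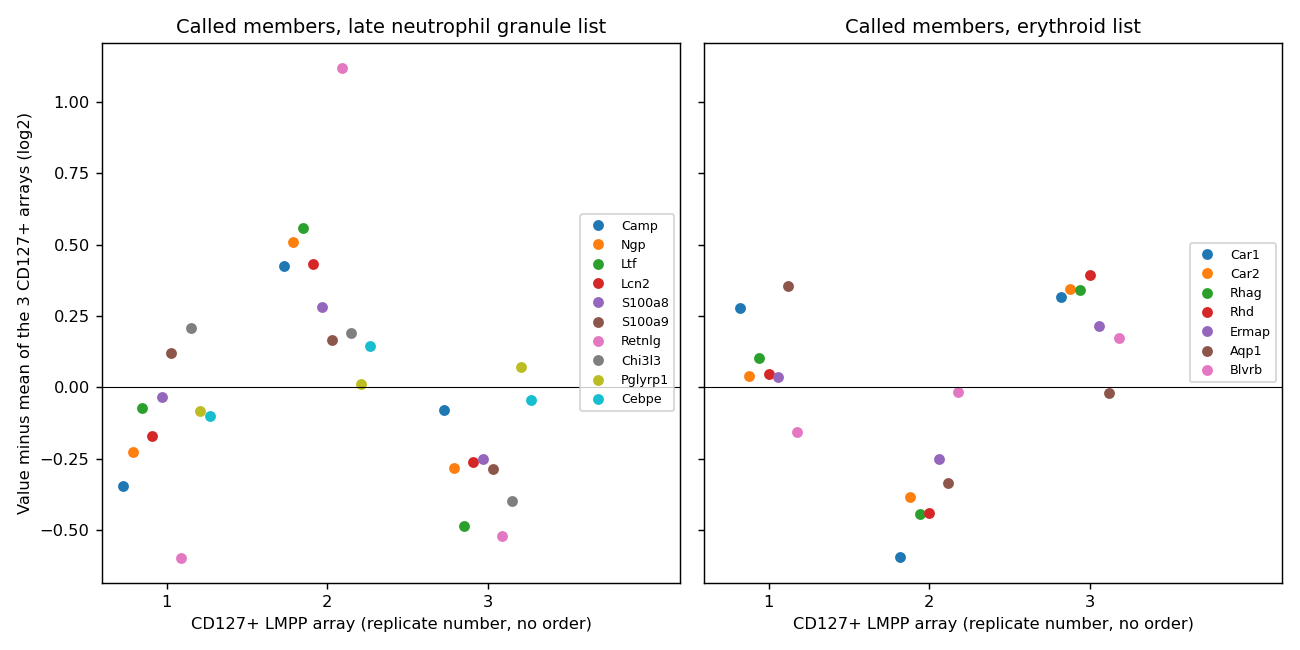
Value on each CD127+ LMPP array minus the mean of the 3 CD127+ LMPP arrays (log2), by replicate number, for the 10 called late neutrophil granule genes (left) and the 7 called erythroid genes (right). Array 2 is the highest for 8 of 10 genes on the left and the lowest for 6 of 7 on the right.

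Metallothioneins, small proteins that bind zinc and copper, gave another large difference. Mt2 read 8.36, 7.20 and 8.04 in CD127+ LMPPs, against 6.14, 5.82 and 5.56 in CD127- LMPPs, 4.52 and 5.56 in Ly6D- CLPs, and 4.84 and 5.12 in Ly6D+ CLPs. The difference was 2.58 (SE 0.27, 5.98-fold, adjusted p = 0.00322), and the 3 CD127+ arrays lay above the rest. Mt1 was called (1.12, adjusted p = 0.0415) but read 7.83, 7.11 and 7.57 in CD127+ LMPPs and 7.92, 7.38 and 6.85 in CD127- LMPPs, so that the LMPP groups overlapped, with CLP levels of 5.82 to 5.98. The call of Mt1 was lost in 8 of 10 fits with 1 array left out. Against CD127- LMPPs alone Mt2 passed (2.03, adjusted p = 0.00948) and Mt1 did not (0.12, adjusted p = 0.913). The 8 other members of this list of 10, the metallothioneins Mt3 and Mt4, the regulator Mtf1 and zinc transporters, were not called, and its median was -0.04.

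Promoter windows of 250 bases before the gene start, from RefSeq on GRCm38.p6, were searched on both strands for 1 motif per group: TGCACNC or TGCGCNC, the core of metal response elements, for metallothioneins; TTGCNNAA, a form of the sequence bound by C/EBP factors, for the late neutrophil genes; and AGATAA or TGATAA, bound by GATA factors, for the erythroid genes. Each motif was searched in its own group, and overlaps between different motifs were not sought. Mt2 held 3 matches of the metal response core and Mt1 held 1, while 21.4% of all 32851 windows held at least 1. Of the 10 called late neutrophil genes, 9 had a window and 5 held TTGCNNAA (Ngp, Ltf, Lcn2, S100a9 and Retnlg), beside 9.56% of all windows. Of the 7 called erythroid genes, 5 had a window and 3 held a GATA motif (Rhag, Rhd and Ermap), beside 16.6% of all. A match describes the letters and is neither a binding site nor a cause, and these shares were not tested. The windows of 2 genes of each group are shown 5′ to 3′ on the gene's strand to set these letters beside the values, with matches in capitals (reverse complements where the match is on the other strand). They lie at chr8:94172368-94172617 (+) for Mt2, chr8:94178839-94179088 (+) for Mt1, chr9:110419558-110419807 (+) for Ngp, chr2:32387740-32387989 (-) for Lcn2, chr17:40810899-40811148 (+) for Rhag and chr4:119189996-119190245 (-) for Ermap.
Mt2: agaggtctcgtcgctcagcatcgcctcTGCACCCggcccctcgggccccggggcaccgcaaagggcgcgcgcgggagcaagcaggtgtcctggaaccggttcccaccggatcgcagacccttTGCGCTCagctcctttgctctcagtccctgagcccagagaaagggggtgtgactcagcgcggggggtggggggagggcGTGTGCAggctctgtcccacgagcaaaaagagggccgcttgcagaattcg
Mt1: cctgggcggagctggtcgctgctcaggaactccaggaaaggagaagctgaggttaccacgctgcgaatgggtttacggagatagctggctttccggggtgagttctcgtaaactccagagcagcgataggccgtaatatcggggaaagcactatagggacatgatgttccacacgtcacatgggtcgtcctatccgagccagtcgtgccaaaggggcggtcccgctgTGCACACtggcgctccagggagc
Rhag: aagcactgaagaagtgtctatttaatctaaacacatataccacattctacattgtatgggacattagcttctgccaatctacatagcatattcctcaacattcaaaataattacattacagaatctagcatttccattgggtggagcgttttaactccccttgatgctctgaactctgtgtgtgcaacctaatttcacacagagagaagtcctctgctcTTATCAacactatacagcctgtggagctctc
Ermap: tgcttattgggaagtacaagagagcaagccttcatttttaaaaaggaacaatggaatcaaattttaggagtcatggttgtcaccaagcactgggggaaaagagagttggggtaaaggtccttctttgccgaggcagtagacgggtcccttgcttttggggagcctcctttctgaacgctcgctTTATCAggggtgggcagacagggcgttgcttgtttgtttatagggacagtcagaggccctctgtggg
Ngp: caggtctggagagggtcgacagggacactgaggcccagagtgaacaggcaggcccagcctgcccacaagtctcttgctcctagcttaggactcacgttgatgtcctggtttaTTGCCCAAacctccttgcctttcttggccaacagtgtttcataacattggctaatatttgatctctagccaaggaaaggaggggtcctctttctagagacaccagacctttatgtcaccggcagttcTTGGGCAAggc
Lcn2: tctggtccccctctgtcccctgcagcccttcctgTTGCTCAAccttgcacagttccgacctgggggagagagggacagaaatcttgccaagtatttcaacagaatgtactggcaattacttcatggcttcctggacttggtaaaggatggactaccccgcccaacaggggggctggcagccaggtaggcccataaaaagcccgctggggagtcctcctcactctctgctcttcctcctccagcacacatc

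Other genes highest in CD127+ LMPPs were of mixed kinds. Ces2g, a carboxylesterase, read 4.84, 4.66 and 5.38 in CD127+ LMPPs and 2.81 to 3.78 elsewhere (difference 1.77, SE 0.16, at least 1.44-fold, adjusted p = 0.00241), so the other groups all lay under the low-signal limit. Expi, now Wfdc18, a secreted proteinase inhibitor, read 7.84, 7.81 and 7.60 in CD127+ LMPPs and 5.31 to 6.88 elsewhere (3.08-fold, adjusted p = 0.00322). Pglyrp2, a peptidoglycan amidase, read 7.03 to 7.15 in CD127+ LMPPs and 5.73 to 6.55 elsewhere (2.06-fold, adjusted p = 0.00571). Aldh1a1, which makes retinoic acid from retinaldehyde, read 5.11 to 5.41 in CD127+ LMPPs and 4.02 to 4.49 elsewhere (at least 1.80-fold, adjusted p = 0.00352). Atp1b2, a β subunit of the sodium pump, read 4.81 to 5.14 in CD127+ LMPPs and 3.55 to 4.35 elsewhere (at least 1.51-fold, adjusted p = 0.00784). None of these ranges overlapped.

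Among called genes, those with their lowest level in CD127+ LMPPs were fewer (51, against 104 with their highest), and the largest differences of the named ones were smaller. Gria3, a subunit of AMPA glutamate receptors, was the brightest of the 10 named. It read 7.35, 7.34 and 6.96 in CD127+ LMPPs, against 8.58, 8.36 and 8.56 in CD127- LMPPs, 8.12 and 8.05 in Ly6D- CLPs, and 7.95 and 7.97 in Ly6D+ CLPs. It fell by 0.96 log2 (SE 0.12, 1.95-fold lower, adjusted p = 0.00672), with all 19 probe sets lower and 18 of them lowest in CD127+ LMPPs. Klrk1, the activating NK cell receptor NKG2D, read 3.02, 3.22 and 3.58 in CD127+ LMPPs, against 5.27, 4.96 and 4.62 in CD127- LMPPs, 4.86 and 4.32 in Ly6D- CLPs, and 4.43 and 4.51 in Ly6D+ CLPs. Its CD127+ arrays lay under the low-signal limit, so the measured difference of -1.40 (adjusted p = 0.00684) is given as at least 1.18-fold lower. Without CD127+ LMPP array 1 Klrk1 was no longer called (adjusted p = 0.0524).

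Clec9a, a dendritic cell receptor for dead cells, read 4.45, 4.21 and 3.85 in CD127+ LMPPs, against 6.27, 6.59 and 6.17 in CD127- LMPPs, 5.32 and 5.03 in Ly6D- CLPs, and 4.98 and 4.46 in Ly6D+ CLPs. It was at least 1.97-fold lower than the equal mean (difference -1.24, adjusted p = 0.00924) and was not called against Ly6D+ CLPs alone (-0.55, adjusted p = 0.211). Nrp1, neuropilin 1, a co-receptor for semaphorins and vascular endothelial growth factor, read 4.50, 4.37 and 4.43 in CD127+ LMPPs, against 6.22 to 6.69 in CD127- LMPPs and 4.64 to 5.16 in the CLP groups. Its difference of -1.02 (adjusted p = 0.00702) was called pairwise only against CD127- LMPPs (-2.02, adjusted p = 0.000116). Clec9a was also called against Ly6D- CLPs (-1.01, adjusted p = 0.049), and CD127- LMPPs stood highest for both genes.

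Lrrc16a, now Carmil1, a regulator of actin capping, read 4.33, 4.24 and 4.58 in CD127+ LMPPs and 4.97 to 5.59 elsewhere (at least 1.89-fold lower, adjusted p = 0.00879), and it passed against each group, with 32 of 39 probe sets lower. Prkab2, a β subunit of AMP-activated kinase, read 5.66 to 5.89 in CD127+ LMPPs, against 6.23 to 6.46 in CD127- LMPPs and 6.60 to 6.91 in the CLP groups (1.86-fold lower, adjusted p = 0.00795). Nsun4, a mitochondrial RNA methyltransferase, read 4.29 to 4.65 in CD127+ LMPPs, 4.78 to 4.95 in CD127- LMPPs and 5.58 to 5.63 in the CLP groups (1.80-fold lower, adjusted p = 0.00879). Ctsh, cathepsin H, read 4.90 to 5.32 in CD127+ LMPPs and 5.65 to 6.61 elsewhere (1.77-fold lower, adjusted p = 0.0277). B3gnt6, a mucin glycan synthase (-1.11, at least 1.18-fold lower, adjusted p = 0.0108), was also lowest, at 3.30 to 3.90 in CD127+ LMPPs. So was Pcdhgb4, a clustered protocadherin on 1 probe set (-0.98, at least 1.60-fold lower, adjusted p = 0.0433), at 3.55 to 4.58. The CD127+ means of both lay under the low-signal limit. Pairwise, Prkab2 and Nsun4 were not called against CD127- LMPPs (adjusted p of 0.0643 and 0.333). Ctsh passed only against CD127- LMPPs (adjusted p = 0.00325) and Pcdhgb4 only against Ly6D+ CLPs (adjusted p = 0.0381). B3gnt6 was not called against Ly6D+ CLPs (adjusted p = 0.0854). Of the 10 fits that each left out 1 array, Ctsh was not called in 8 and Pcdhgb4 in 9, against 2 each for B3gnt6, Lrrc16a and Prkab2 and 1 for Nsun4. Chi3l3, Ces2g and Pcdhgb4 have close relatives in the genome, and signal shared between relatives was not tested.

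**Figure D3:**
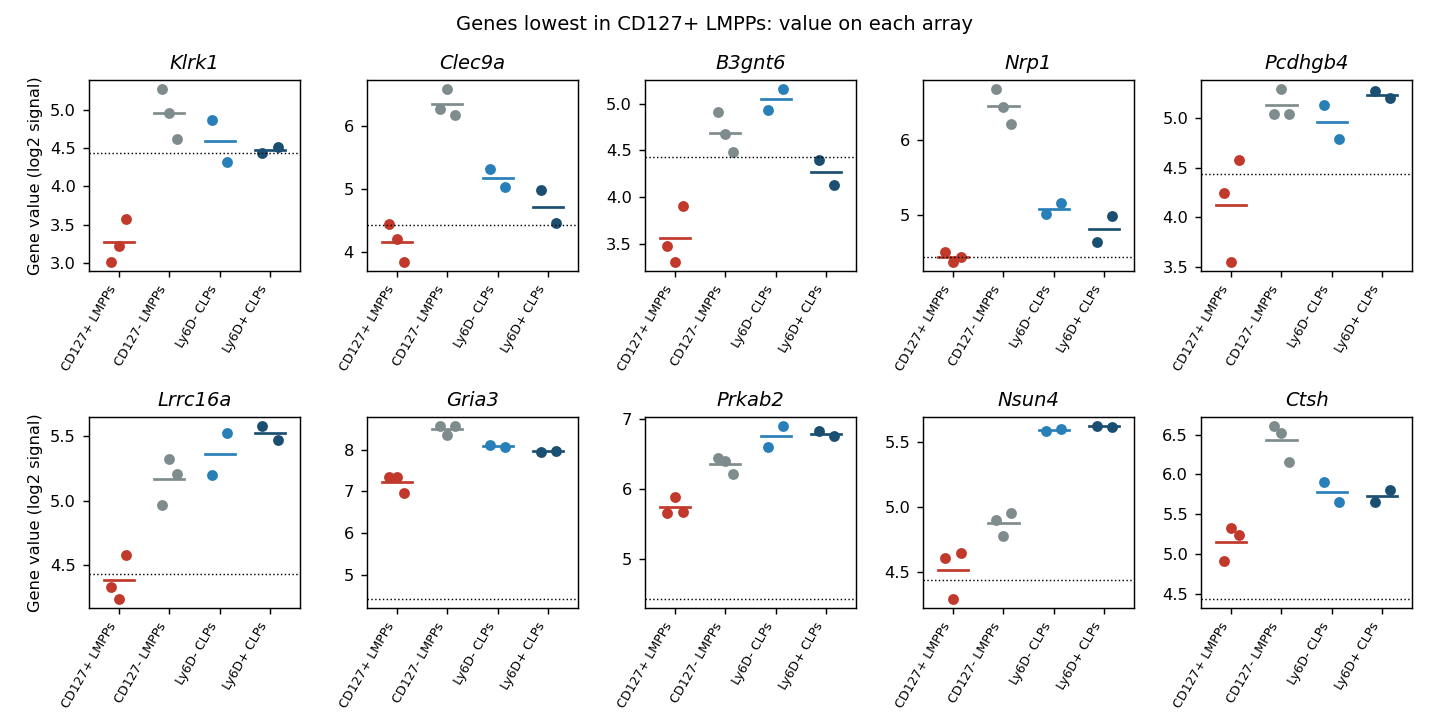
Value on each array (log2) of the 10 genes named as lowest in CD127+ LMPPs, by group, with a bar at the group mean and a dotted line at the low-signal limit of 4.43. By the rule that chose these genes, the 3 CD127+ LMPP arrays lie below all 7 others in every panel. The axes differ between panels, with Gria3 at 6.96 to 7.35 against 7.95 to 8.58.

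The lymphoid lists gave few genes beyond the other groups. Of 17 early lymphoid genes 2 were called higher, beside 0.747% of all genes. Rag2, a subunit of the recombinase that joins antigen receptor segments, had its highest mean in CD127+ LMPPs at 7.07, 7.50 and 7.51, against 4.91 to 5.71 in CD127- LMPPs, 6.98 and 7.01 in Ly6D- CLPs, and 6.73 and 7.12 in Ly6D+ CLPs. It was called against the equal mean (0.92, adjusted p = 0.0452) and not against either CLP group (0.37 and 0.44, adjusted p of 0.473 and 0.374). Rag1, its partner, lay between, at 7.65 to 7.72 in CD127+ LMPPs, against 4.35 to 4.60 in CD127- LMPPs, 7.09 and 7.13 in Ly6D- CLPs, and 9.51 and 9.90 in Ly6D+ CLPs. The difference of Rag1 from Ly6D- CLPs was 0.58 (adjusted p = 0.0851). With 1 array left out, the call of Rag2 against the equal mean was lost in 9 of 10 fits and that of Rag1 in all 10.

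Among 21 B lineage genes the only call against the equal mean was Spib, lower and between (-0.76, adjusted p = 0.0144), beside 0.263% of all genes. Pairwise, 13 of the 21 were lower than in Ly6D+ CLPs and none higher, with a median of -0.96 (1.28% of all genes lower). Against Ly6D- CLPs 1 was higher and 1 lower (1.42% and 0.635% of all genes). None of 20 T lineage and Notch genes was called, and Lat, an adaptor of T cell receptor signalling, had the largest difference (0.68, adjusted p = 0.0774). Of 18 genes of interleukin 7 signalling only Il7r was called, as higher, beside 0.747% of all genes. Of 23 innate lymphoid and NK genes 2 were lower, beside 0.263% of all genes: Klrk1 and the granzyme gene Gzmc (-0.998, adjusted p = 0.0356). Gzmc lay between, at 3.01 to 3.89 in CD127+ LMPPs, against 2.96 to 3.17 in CD127- LMPPs and 4.79 to 5.53 in the CLP groups. The equal mean of its other groups, 4.38, lay under the low-signal limit, so no fold is given. Its call was lost in 8 of the 10 fits with 1 array left out. The medians of these 5 lists against the equal mean lay between -0.11 and 0.14, close to the 0.0064 of all genes. Such medians can hide opposite differences from single groups. Against CD127- LMPPs alone, 4 early lymphoid, 4 B lineage, 3 T lineage and Notch, 5 interleukin 7 and 4 innate lymphoid genes were higher (0.881% of all genes). There 1 innate lymphoid gene was lower (0.592% of all genes). Xcl1, the chemokine lymphotactin, Ltb, lymphotoxin β, and Il18 were on none of the lists, were picked after their values were seen, and were highest in CD127+ LMPPs without passing against every group (0.90, 0.82 and 0.95, adjusted p of 0.0353, 0.0277 and 0.0367).

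A few monocyte and dendritic cell genes were lower than the equal mean. Of 24 monocyte and macrophage genes 2 were lower and none higher, beside 0.263% and 0.747% of all genes. Against CD127- LMPPs alone 10 were lower and none higher, with a median of -0.57 (0.592% of all genes lower). Against Ly6D- CLPs 1 was higher and none lower (1.42% and 0.635% of all genes). Against Ly6D+ CLPs 5 were higher and 1 lower (2.75% and 1.28% of all genes). Csf1r, the receptor for macrophage colony-stimulating factor, had 5.72 to 5.95 in CD127+ LMPPs, against 7.47 to 7.93 in CD127- LMPPs, 6.19 and 6.37 in Ly6D- CLPs, and 5.66 and 5.50 in Ly6D+ CLPs, and so lay between (-0.69, adjusted p = 0.0365). Ly86, which encodes MD-1, was lowest in CD127+ LMPPs at 8.30 to 8.67, against 9.01 to 9.58 elsewhere (-0.71, adjusted p = 0.0335). With 1 array left out, the call of Csf1r was lost in 9 of 10 fits and that of Ly86 in 8. Of 18 dendritic cell and MHC class II genes 3 were lower (Clec9a, Siglech and Spib) and H2-Eb1 higher, beside 0.263% and 0.747% of all genes. Siglech, a lectin of plasmacytoid dendritic cells, read 6.22, 6.54 and 6.72 in CD127+ LMPPs, against 5.37 to 5.74 in CD127- LMPPs, 7.63 and 7.80 in Ly6D- CLPs, and 8.91 and 8.93 in Ly6D+ CLPs. Its arrays did not overlap between any of the 4 groups. Its difference from the equal mean was -0.91 (adjusted p = 0.0135).

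Several calls marked genes that are intermediate or that simply separate LMPPs from CLPs. Of the 6 intermediate increases named as largest, Myct1 (1.40, adjusted p = 0.00241), Trappc6a, a subunit of a vesicle tethering complex (1.07, adjusted p = 0.0114), and Rabac1, a prenylated Rab acceptor (1.07, adjusted p = 0.00352), had like levels in both LMPP groups and lower ones in CLPs. Myct1 read 6.44 to 6.86 in CD127+ LMPPs and 6.79 to 6.91 in CD127- LMPPs, against 3.78 to 4.95 in CLPs. The largest was Scarna2, a Cajal body RNA on 1 probe set, at 10.49, 10.50 and 9.91 in CD127+ LMPPs and 10.24 to 10.60 in CD127- LMPPs, against 3.59 to 6.11 in CLPs (difference 3.74, adjusted p = 0.00317), which the naming rule for large differences leaves out as a small RNA. Among intermediate decreases, Ddit3, the stress-induced factor CHOP (-0.89, adjusted p = 0.00933), Trim25, a ubiquitin ligase of antiviral signalling (-0.64, adjusted p = 0.0433), and Lrrtm2, a synaptic adhesion protein (-0.55, adjusted p = 0.0481), lay near CD127- LMPPs and under both CLP groups. The calls of Trim25 and Lrrtm2 were lost in 10 and 9 of the 10 fits with 1 array left out.

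The remaining lists held few calls. Of 23 genes of the type I interferon response, 12 had their highest mean in CD127+ LMPPs, beside 19.4% of all genes. The list median was 0.35 log2, but Oas2 alone was called, beside 0.747% of all genes called higher. Oas2, an oligoadenylate synthetase, read 6.50, 6.23 and 6.24 in CD127+ LMPPs, against 5.13 to 5.34 in CD127- LMPPs, 5.85 and 6.08 in Ly6D- CLPs, and 5.70 and 5.86 in Ly6D+ CLPs (0.66, adjusted p = 0.0299), and its call was lost in 8 of 10 fits with 1 array left out. None of 15 guanylate-binding and immunity-related GTPases was called against the equal mean, while 5 were higher than in CD127- LMPPs (0.881% of all genes). Against Ly6D- CLPs 1 was lower (0.635% of all genes), and against Ly6D+ CLPs 3 were lower (1.28%) and 1 higher (2.75%). Hoxa9, a homeobox gene of early progenitors, was the 1 call among 23 stem and multipotent progenitor genes (0.63, adjusted p = 0.0433), and was lost in 9 of those 10 fits. In the stem list too, 12 of 23 genes had their highest mean in CD127+ LMPPs, with a list median of 0.33. The 1 call stood beside 0.747% of all genes called higher. None of 16 mast cell, basophil and eosinophil genes and none of 18 megakaryocyte genes was called. Prg2, the major basic protein of eosinophils, read 6.18, 7.10 and 7.16 in CD127+ LMPPs and 3.71 to 5.96 elsewhere, and missed the threshold (1.93, adjusted p = 0.0503). Pf4, platelet factor 4, differed by 1.18 (adjusted p = 0.0709).

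Of 14 stroma and endothelium genes Emcn, endomucin, was called higher (0.88, adjusted p = 0.0131), beside 0.747% of all genes. Its levels were 5.80 to 6.17 in CD127+ LMPPs, against 5.50 to 5.78 in CD127- LMPPs and 4.30 to 5.36 in the CLP groups. None of the 32 cell cycle, 22 immediate early and heat shock, 16 homing and adhesion or 10 mature B and plasma cell genes was called. The largest differences of their lists were those of Cdc20 (0.57, adjusted p = 0.0704), Egr3 (-0.63, adjusted p = 0.101), Ccr9 (0.49, adjusted p = 0.329), Cd22 (-0.45, adjusted p = 0.23) and, among GTPases, Gbp3 (-0.58, adjusted p = 0.105). Of 64 ribosomal protein genes 3 were higher (Rpl30, Rps27 and Rpl31), of 77 nuclear genes of oxidative phosphorylation 3 (Cox5a, Cox6b1 and Ndufa6) and of 83 small nucleolar and Cajal body RNAs 3, with 1 lower. The shares called higher were 4.69%, 3.9% and 3.61%, beside 0.747% of all genes. Rpl30 (0.86) and Cox5a (0.69) differed from CD127- LMPPs by 0.09 and -0.10, and from both CLP groups by more than 1 log2. Hist1h4h was the 1 call of 30 clustered histone genes (0.86, adjusted p = 0.0353), beside 0.747% of all genes called higher. In the 10 fits with 1 array left out, Rpl30 and Hist1h4h lost their calls in 7 each and Rps27 in 8.

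**Figure D4:**
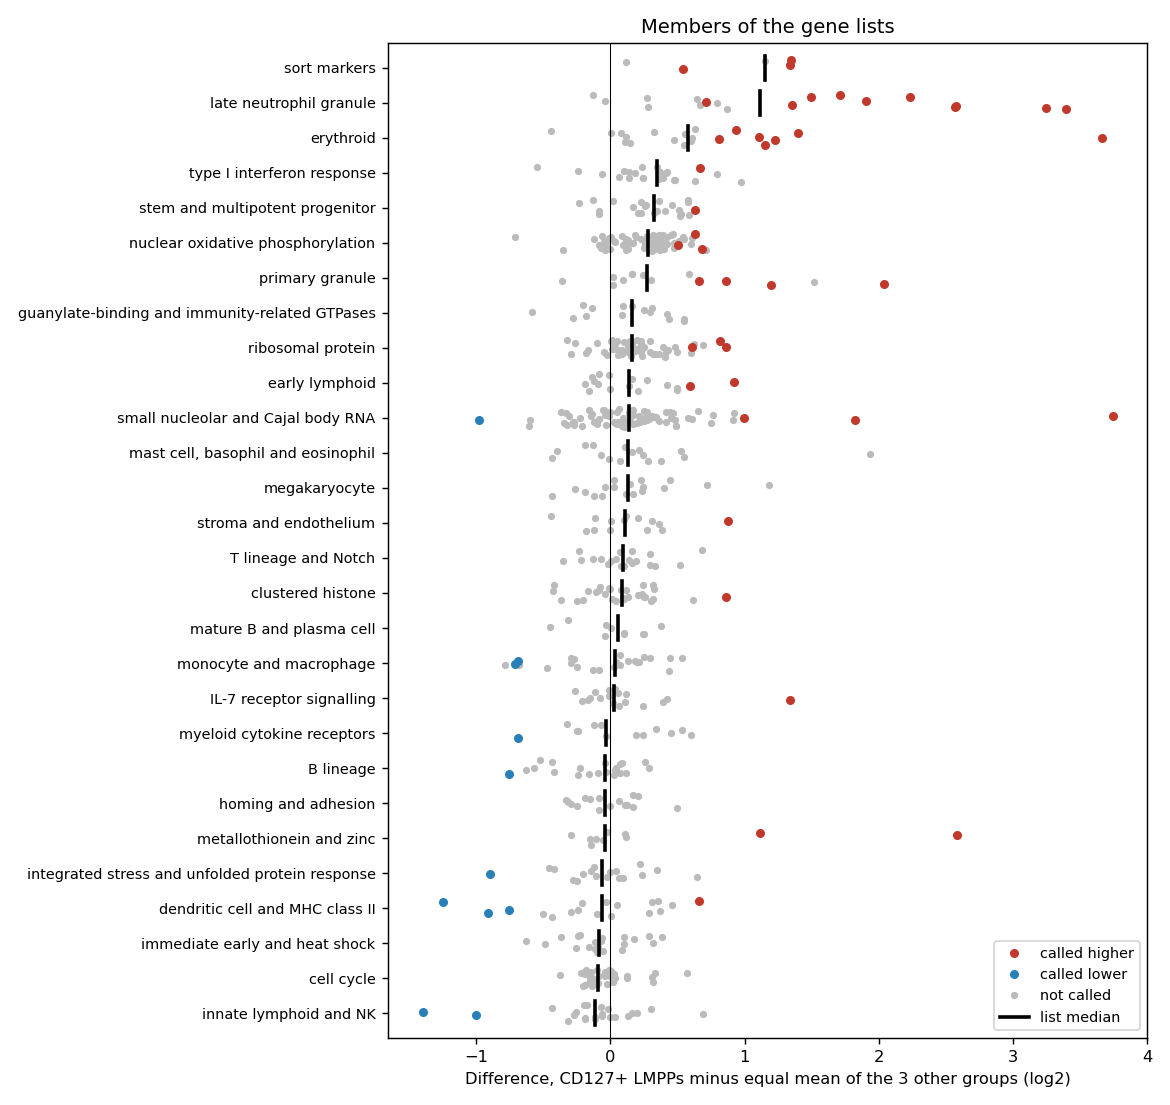
Difference of each measured member of the 28 gene lists, CD127+ LMPPs minus the equal mean of the 3 other groups (log2), ordered by list median (black bar), with members called higher in red, lower in blue and not called in grey. The late neutrophil granule and erythroid lists have medians of 1.11 and 0.58, and the sort markers one of 1.15, while most other medians lie near 0.

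Of the microRNA genes, picked after their values were seen, 9 were called, 2 higher and 7 lower, each on 1 probe set that does not tell hairpin from mature arms. Over all genes 0.747% were called higher and 0.263% lower. The share of measured microRNA genes that these calls make up is not given here, so they are described singly. Mir142, whose products are abundant in blood cells, read 7.03, 6.76 and 6.93 in CD127+ LMPPs, against 6.75, 7.36 and 6.81 in CD127- LMPPs, 8.07 and 7.90 in Ly6D- CLPs, and 8.37 and 8.34 in Ly6D+ CLPs (-0.86, adjusted p = 0.0238). Mir155, a regulator of lymphocyte activation, read 7.15, 6.17 and 6.94 in CD127+ LMPPs, against 6.22 to 6.45 in CD127- LMPPs and 8.59 to 9.22 in CLPs (-1.32, adjusted p = 0.0135). Both thus separated LMPPs from CLPs. Mir296 alone was lower than in each group pairwise (-1.28, adjusted p = 0.00672), but it read 1.86 to 2.27 in CD127+ LMPPs and 3.00 to 3.65 elsewhere, under the low-signal limit throughout. Mir302a, Mir302b, Mir302c and Mir367, neighbours on chromosome 3, had their lowest group mean in CD127+ LMPPs, with arrays at 1.68 to 4.53. None was called against CD127- LMPPs alone (differences of -0.34 to -0.18, adjusted p of 0.57 to 0.81). No group but the CLPs had a mean above the limit for any of the 4. Mir692-1 and Mir3473c were higher (0.53 and 0.80). The mature sequences of the 2 brighter genes that fell, and of the arms of the chromosome 3 cluster that share a seed, are given 5′ to 3′ from RefSeq (GRCm38.p6), with the seed, bases 2 to 8, in capitals.
mmu-miR-142a-5p: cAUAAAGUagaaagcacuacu
mmu-miR-142a-3p: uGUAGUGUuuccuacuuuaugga
mmu-miR-155-5p: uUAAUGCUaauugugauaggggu
mmu-miR-155-3p: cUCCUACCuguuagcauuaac
mmu-miR-302b-5p: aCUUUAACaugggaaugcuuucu
mmu-miR-302c-5p: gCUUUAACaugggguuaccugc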

How the data were processed

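The authors deposited 1 table of 269751 probe sets by 10 arrays, whose values run between 0.20 and 14.8 and were taken to be log2 signals, the base being not given in the sources used here. Affymetrix Power Tools is named in the submitters' processing notes. Summary method, normalization, build and array design are likewise not given, and the values were not normalized again. Precision is limited by the number of arrays.

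Gene values are means over the 233753 probe sets with 1 gene symbol (23152 genes, 2319 of them on 1 probe set). Single probe sets were also fitted with limma, all 269751 together. None was called against the equal mean or beyond each other group, whether with 1 symbol, several (5106) or none (30892). The absence of calls is thus not particular to probe sets outside the gene values. Of those with several symbols or none, 3022 had an unadjusted limma p under 0.05 against the equal mean. In the RefSeq gene table of GRCm38.p6, read for names alone, 20875 symbols were current, 2274 were synonyms and 3 were absent.

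A group-means model over all 10 arrays was fitted with limma 3.58.1 in R 4.3.3 (default empirical Bayes), with Benjamini-Hochberg adjustment over all genes at 0.05. The 3 tests were CD127+ LMPPs against the equal mean of the other 3 group means, against each group, and the largest of the 3 pairwise p-values where all signs were the same. The low-signal limit came from 1419 sensory receptor genes (median 2.52, against 4.56 over all genes). Same-numbered arrays of different groups deviated from their group means with correlations of -0.0431 to 0.127, so the replicate numbers were not taken as pairs.

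The comparison, the 28 gene lists and the rules were chosen with earlier results of these data known. Named genes are the 10 largest differences in each direction among called genes with an extreme CD127+ mean, no overlap with any other array and a brighter side above the limit, since the stricter test alone gave 1 gene. Predicted genes, small RNAs, sensory receptor and antigen receptor genes were left out. To these were added the sort markers, up to 4 members of each list that passed against each group, else up to 2 called, else the largest difference, and the 6 largest intermediate calls in each direction. As alternatives, arrays were quantile-normalized or centred on medians, a gene was given its median or its brightest probe set, dim genes were filtered out, limma was run with trend and robust options, a replicate block or array weights, groups were weighted otherwise, a 2-fold threshold was added and each array was left out in turn. Data were also simulated with 200 changed genes among 23152. Of log2 changes of 1, 92.6% were recovered against the equal mean and 42.6% against each group, and of changes of 2, 99.6% and 98.4%. The simulated noise was normal and independent between genes, and the 3 other groups shared a common mean. The real groups differ among themselves, so these rates need not hold for these data. Python 3.11.15 handled sequences and figures, with matplotlib 3.10.9 for drawing, numpy 2.4.6 and pandas 2.3.3.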

Additional observations from a re-analysis of the deposited data

How the results depend on the processing

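Of the 49 called genes among the 59 named, Car1, Camp, Ces2g, Gria3, Myct1, Scarna2 and Scarna13 were called under all 20 alternatives, and 13 under each of the 10 that leave out 1 array. The count of 234 genes against the equal mean was 60 with the median probe set of a gene and 99 with the brightest, 756 with dim genes left out and 971 with trend and robust settings, 127 against the mean of the 7 other arrays, 120 with CD127- LMPPs weighted like both CLP groups together, and 57 with a 2-fold threshold. In the same order of settings, up to the weights, genes with the highest CD127+ mean (104) numbered 37, 57, 294, 313, 62 and 60, and those with the lowest (51) numbered 10, 22, 204, 291, 30 and 27. Quantile normalization and median centring gave 309 and 200 genes, 227 and 198 of them shared with the 234. The share of higher calls was 73.9% and changed by over 10 percentage points only with trend and robust settings (60.5%). Genes beyond each other group numbered 1, against 24 when each pairwise p was adjusted on its own, 0 with the brightest probe set and 2 with trend and robust settings. Called named genes numbered 19 and 16 with the median and the brightest probe set. Called list members (51) numbered 23 and 21 with those, 99 with dim genes left out and 119 with trend and robust settings. The late neutrophil count of 10 was 5 with the brightest probe set, and the erythroid count of 7 was 4 with the median probe set, 1 with the brightest and 11 with dim genes left out. With a replicate block, although the numbers do not pair the arrays, the counts were 67 genes against the equal mean, 35 highest, 14 lowest, 31 named and 30 list members called. Leaving out 1 array gave 39 to 195 genes against the equal mean, 0 to 3 beyond each other group, 19 to 96 highest, 8 to 37 lowest, 17 to 40 named genes, 15 to 42 list members, 4 to 10 late neutrophil and 2 to 7 erythroid members, with fewer samples by construction. With the brightest probe set 4 differences changed sign: Flt3 -0.0303, Pf4 -0.32, Cd22 0.43 and Ccr9 -0.17, none of them called. The cause of these changes was not tested. The settings for the highest, lowest, late neutrophil and erythroid counts were run after seeing the data.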
